A study of Homo sapiens with 6 samples.

Results

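Growth factor signalling genes were described in MHCC-97H, an established human hepatocellular carcinoma line with high metastatic potential: 29 receptor tyrosine kinase genes and 19 ligand genes, chosen by symbol. All 48 were among the 20388 gene symbols of the deposited table, and MET and the IGF genes were left out. RNA sequencing covered 3 libraries treated for 24 h with the solvent DMSO and 3 treated for 24 h with GK921, a small-molecule inhibitor of the protein cross-linking enzyme transglutaminase 2, at 2 µM. Both groups are labelled wild type and were grown in DMEM with fetal bovine serum and antibiotics. The labels do not say whether the GK921 cells also received DMSO. The comparison asks how exposure to the inhibitor changed the transcriptome. Whether libraries of the same group are separate cultures is not stated, and the p-values then reflect only library-to-library spread, which may be technical.

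Receptor tyrosine kinases are membrane proteins that bind a ligand outside the cell, pair up and phosphorylate tyrosines on their own tails, which recruit adaptors to the RAS-ERK and PI3K-AKT cascades. EGF-family ligands are made as membrane precursors and are shed by metalloproteases, whereas ephrins stay on the cell surface and signal to EPH receptors on neighbouring cells. In liver, EGFR takes part in regeneration, and FGFR4 is the hepatocyte receptor for the bile acid hormone FGF19.

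Expression is given as FPKM, read fragments per kilobase of a gene's transcript relative to the mapped total, a scale on which genes of different length can be compared. Genes above 0 numbered between 13992 and 14433 per library. Absolute depth is unknown. From the most frequent ratio of low values between libraries, the relative depths were 1, 0.943 and 0.872 in DMSO and 0.768, 0.771 and 0.863 after GK921. Values near 0 are thus coarser after GK921, though hardly so between the third libraries of both groups. The liver label was checked against fixed markers. The epithelial keratin KRT8 was at 1625 to 1638 FPKM in DMSO and the hepatocyte factor HNF4A at 8.14 to 10.4, but 7 secreted hepatocyte proteins (ALB, TF, TTR, APOA1, APOB, SERPINA1 and FGB) averaged 0.0233 to 0.583 in DMSO and AFP 0.783. Of the fibroblast markers, COL1A1 and COL1A2 averaged 0.00667 and 0.0167 FPKM, while DCN and LUM went from 8.34 ± 0.969 to 0.953 ± 0.196 and from 42.2 ± 1.22 to 24.8 ± 2.93 (mean ± SD, n = 3 libraries in either group, here and for all means that follow). The summed fibroblast list was at 48.5 to 52.5 FPKM in DMSO and 22.3 to 28.5 after GK921, and its part in the results was not tested. The endothelial markers CDH5 and CLDN5 were listed at 0. The leukocyte list summed to 104 to 113 FPKM in DMSO and 93.3 to 110 after GK921, nearly all of it CD68, a lysosomal protein gene, at 109 and 99.7, while the defining marker PTPRC averaged 0.277 and 0.413 FPKM.

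To show the control regions of the locus that carries the most abundant ligands, the 250 bases before the annotated start of AREG (chr4:74444886-74445135, plus strand), EREG (chr4:74364895-74365144, plus strand) and BTC (chr4:74794524-74794773, minus strand) are given 5′ to 3′, from RefSeq on GRCh38.p14. EPHA2 (chr1:16156070-16156319, minus strand) is added as the other called gene with the same 8-base match as AREG. Capitals mark the cyclic AMP response element TGACGTCA and the TATA box TATAAA.
AREG: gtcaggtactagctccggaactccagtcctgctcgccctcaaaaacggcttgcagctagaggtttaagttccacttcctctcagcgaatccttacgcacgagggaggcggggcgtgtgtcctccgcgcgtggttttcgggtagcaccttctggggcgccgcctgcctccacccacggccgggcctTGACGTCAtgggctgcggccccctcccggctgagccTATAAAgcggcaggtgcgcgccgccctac
EREG: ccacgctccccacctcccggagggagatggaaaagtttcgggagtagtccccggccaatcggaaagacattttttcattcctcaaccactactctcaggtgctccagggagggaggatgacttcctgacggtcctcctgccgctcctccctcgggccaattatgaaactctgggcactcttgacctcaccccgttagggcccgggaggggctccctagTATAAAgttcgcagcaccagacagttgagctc
BTC: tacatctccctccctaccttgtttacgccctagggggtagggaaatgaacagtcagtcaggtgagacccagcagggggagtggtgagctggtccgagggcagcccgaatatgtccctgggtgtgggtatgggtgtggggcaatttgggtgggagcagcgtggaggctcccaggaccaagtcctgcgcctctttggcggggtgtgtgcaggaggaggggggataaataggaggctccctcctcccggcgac
EPHA2: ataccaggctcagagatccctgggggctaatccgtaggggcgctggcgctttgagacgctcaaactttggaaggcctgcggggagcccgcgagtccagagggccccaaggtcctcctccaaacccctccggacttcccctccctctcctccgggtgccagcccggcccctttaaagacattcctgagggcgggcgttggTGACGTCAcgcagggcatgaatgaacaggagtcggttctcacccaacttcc
Promoters were searched on both strands for TGANTCA (AP-1), TGATGNAAN (the ATF4 and CHOP composite element), the NF-kappaB motif, TGACGTCA and TATAAA, the last 2 letter strings being added after the first 3 had been fixed. In the table of 35116 RefSeq promoters, 42 of the 48 genes had an entry. FGFR1, ERBB3, FGF19, NRG1, PDGFB and PDGFC had none. TGACGTCA was in 1.65% of all promoter windows and, among these genes, in those of AREG, starting 65 bases before the start, EPHA2, starting 51 before, and FLT1, starting 81 before. TATAAA was in 10.7% of windows and lay 29 bases before the start in AREG and 32 in EREG. Among called genes it was also in windows of EGFR and DDR2. TGANTCA, present in 6.57% of windows, was, among called genes, in 1 of 2 EGFR windows and in 1 of TYRO3. Of the 21 called genes with a promoter entry, 0 held TGATGNAAN, present in 3.13% of windows, or the NF-kappaB motif, present in 0.527%. Some genes have several windows, so shares by gene are higher. A match in any window was held by 2.03% of genes for TGACGTCA, 13% for TATAAA and 8.06% for TGANTCA. It was 3.87% for TGATGNAAN and 0.645% for the NF-kappaB motif. In none of the 67 windows of these genes did matches of different motifs overlap.

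Of the 48 genes, 30 averaged 1 FPKM or more across the 6 libraries and were tested. Another 8 were above 0 in some library but under that mean, with no value above 0.73 FPKM, and 10 were listed at 0 in every library. The genes listed at 0 were the receptors ERBB4, FGFR2, PDGFRA, KIT, FLT1, RET and ROR2, the bile acid hormone gene FGF19, the lymphatic growth factor gene VEGFC and the ephrin gene EFNB2. Of the 30 tested genes, 12 were called higher and 12 lower after GK921 at a limma adjusted p under 0.05. The 12 higher genes include DDR2, which reached the limit only through its GK921 libraries. That is 80% called, against 75.9% of all 11573 tested genes, so the share called lay near the background. Among all tested genes 46.8% were called higher and 29.2% lower. The median log2 change was 0.11 for the 30 genes and 0.16 for all tested genes. A change of more than 1 log2 unit was seen in 10 of the 30 (33.3%) and in 16.1% of all tested genes. The 2 groups did not overlap for 26 of the 30 genes, against 78% of all tested genes. The 10 and the 26 both include DDR2, which for the reason above supports neither count. Each log2 change was taken after adding a pseudocount of 1 to the FPKM, so changes of low genes are understated, and folds are ratios of mean FPKM. In bulk RNA, fewer cells with a transcript and less of it per cell cannot be told apart.

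**Figure D1:**
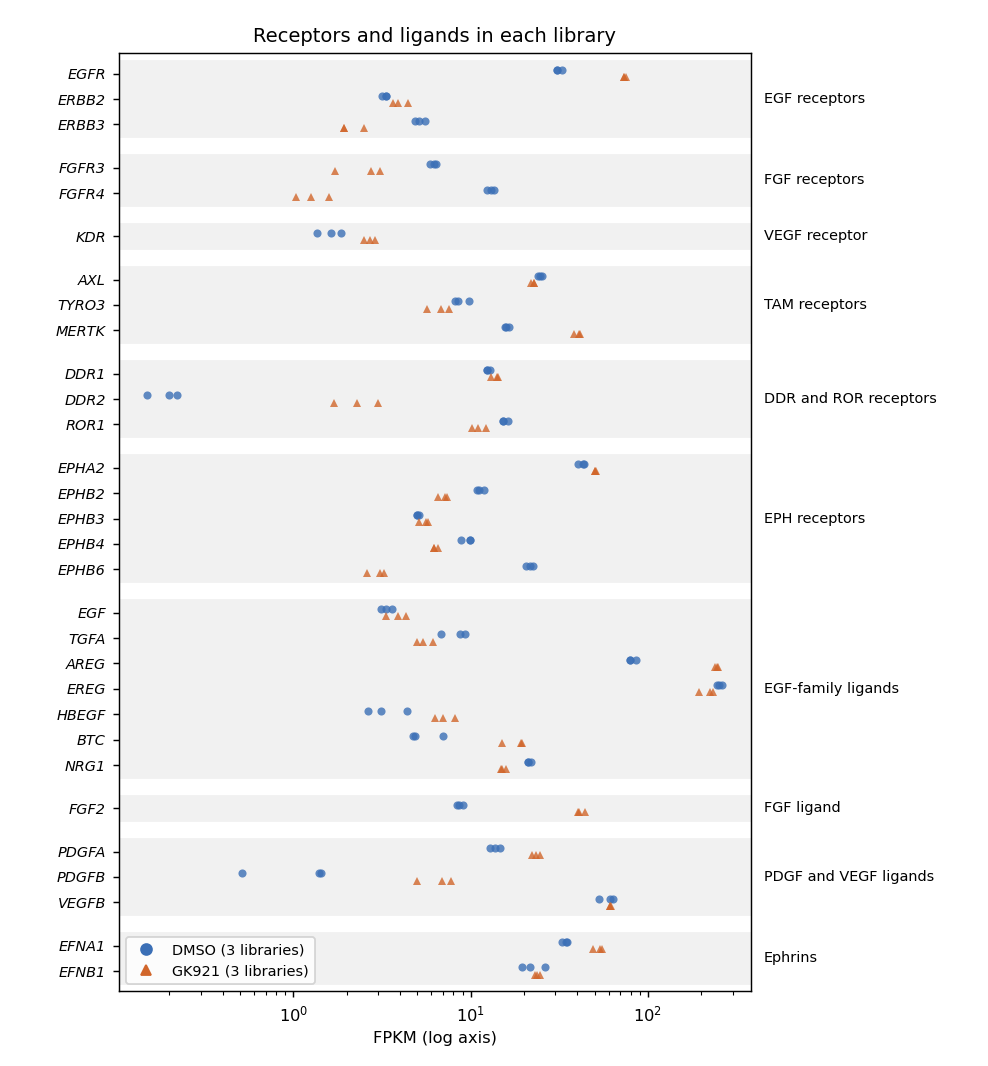
FPKM (log axis) of the 30 tested genes in each library, grouped by role, with circles for the 3 DMSO and triangles for the 3 GK921 libraries. EREG and AREG hold the highest values, and the groups stand farthest apart for FGFR4, EPHB6 and DDR2.

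Among the EGF receptors, EGFR was the most abundant and rose, ERBB3 fell, and ERBB2 was not called. EGFR, the receptor of most EGF-family ligands, read 32.9, 30.5 and 30.8 FPKM in DMSO and 73.4, 73.2 and 75.1 after GK921. Every treated library lay above every control library, a 2.35-fold rise (log2 change 1.21 ± 0.045 SE, limma adjusted p = 2.81e-08). ERBB3, whose kinase is largely inactive and which signals by pairing with other family members, was at 5.56, 4.86 and 5.11 against 1.93, 1.92 and 2.5 FPKM. The fall was 2.45-fold (log2 change -0.99 ± 0.12, limma adjusted p = 5.28e-05), with no overlap of the groups. ERBB2, the partner receptor with no known ligand, read 3.18, 3.35 and 3.34 against 4.44, 3.88 and 3.64 FPKM. Its groups were separate by a small margin and the limma adjusted p was 0.0918, or 0.0262 without the intensity trend. On ERBB2, 571 exon bases are shared on the opposite strand with MIEN1, at 98.6 and 111 FPKM, and since strand handling is not given their reads cannot be told apart there.

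Among the ligands of these receptors, EREG and AREG held the 2 highest levels of the 30 tested genes in both groups, and the mix of ligands shifted. Summed over the 7 EGF-family ligands among the genes described, levels were 384, 373 and 372 FPKM in DMSO and 520, 522 and 490 after GK921. The family members EPGN, NRG2, NRG3 and NRG4 are not in this sum. NRG4 averaged 1.74 FPKM in DMSO and 1.5 after GK921, and the others less. EREG, encoding epiregulin, which binds EGFR and ERBB4, went from 262, 252 and 244 to 225, 232 and 194 FPKM. It fell 1.17-fold (log2 change -0.22 ± 0.062, limma adjusted p = 0.00969), and the third GK921 library was the lowest. AREG, encoding the EGFR ligand amphiregulin, went from 78.8, 79.4 and 85.5 to 248, 239 and 244 FPKM. This was a 3-fold rise with a spread within groups far below the difference (log2 change 1.57 ± 0.039, limma adjusted p = 3.06e-09). The share of AREG in the ligand sum was thus 20.5%, 21.3% and 23% in DMSO and 47.8%, 45.8% and 49.8% after GK921. The share of EREG was 68.3%, 67.7% and 65.7% against 43.3%, 44.4% and 39.7%. AREG exceeded EREG in all 3 GK921 libraries and in none of the DMSO libraries.

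**Figure D2:**
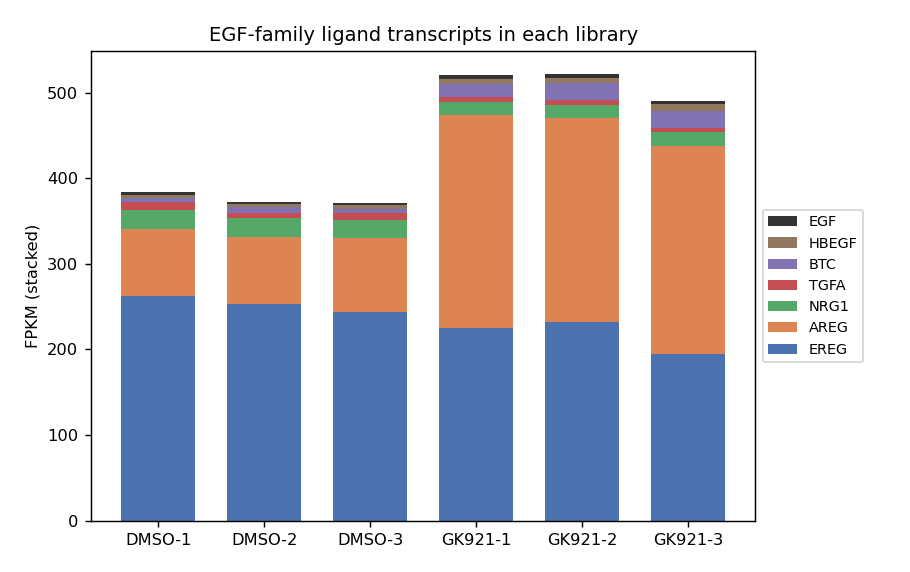
Stacked FPKM of 7 EGF-family ligand genes in each of the 6 libraries, from 0. The AREG segment grows from 78.8 to 85.5 FPKM in DMSO to 239 to 248 after GK921, while EREG stays the larger segment in DMSO only.

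EREG, AREG and BTC lie in 1 stretch of chromosome 4 in GRCh38, with EREG at 74365143 to 74388751, AREG at 74445134 to 74455009 and BTC at 74744759 to 74794686. The gaps are 56.4 kb from EREG to AREG and 290 kb from AREG to BTC. BTC, encoding betacellulin, another ligand of EGFR and ERBB4, read 4.88, 6.96 and 4.73 in DMSO and 15.1, 19.6 and 19.3 FPKM after GK921. Its 3.26-fold rise (log2 change 1.55 ± 0.15, limma adjusted p = 1.15e-05) left no overlap between groups, so of the 3 neighbours 2 rose and 1 fell. HBEGF, the heparin-binding ligand, rose 2.12-fold from 3.14, 2.63 and 4.35 to 6.3, 6.94 and 8.18 FPKM (log2 change 0.91 ± 0.15, limma adjusted p = 0.000576). TGFA, the EGFR ligand TGF-alpha, fell 1.5-fold from 9.31, 6.84 and 8.71 to 6.16, 5.38 and 4.98 FPKM (limma adjusted p = 0.00452). The ERBB3 and ERBB4 ligand gene NRG1 fell 1.4-fold, from 22, 21.2 and 20.95 to 14.9, 15 and 15.8 FPKM (log2 change -0.46 ± 0.057, limma adjusted p = 7.12e-05). NRG1 and ERBB3 were thus both lower. EGFR and its ligands AREG, BTC and HBEGF were higher, while its ligands EREG and TGFA were lower. EGF itself was at 3.35 ± 0.257 and 3.85 ± 0.501 FPKM, with overlapping groups and no call (limma adjusted p = 0.25).

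In the FGF system, both tested receptors fell and the tested ligand rose. FGFR4 read 12.3, 12.9 and 13.6 FPKM in DMSO and 1.58, 1.03 and 1.26 after GK921. With a pseudocount of 1 this 10-fold fall was the largest log2 change of the 30 genes by size (-2.61 ± 0.11, limma adjusted p = 7.09e-08), but with one of 5 (-1.51) those of FGF2 (1.78) and EPHB6 (-1.74) were larger. With a pseudocount of 1, 0.674% of all tested genes had a lower value. FGFR3 fell 2.46-fold from 6.39, 6.25 and 5.93 to 2.75, 1.71 and 3.1 FPKM (log2 change -1.05 ± 0.15, limma adjusted p = 0.000222). FGFR4 was the more abundant of the pair in DMSO and the less abundant after GK921, in each library. FGFR1 was at 0.03 to 0.27 FPKM in DMSO and 0.07 to 0.33 after GK921, under the limit for testing. KLB, the beta-klotho co-receptor through which FGF19 binds FGFR4, averaged 0.193 and 0.17 FPKM.

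FGF2, basic fibroblast growth factor, read 9.07, 8.62 and 8.35 FPKM in DMSO and 44.2, 40.5 and 41.1 after GK921. It rose 4.83-fold (log2 change 2.15 ± 0.062, limma adjusted p = 6.23e-09), and 98.8% of all tested genes had a lower log2 change. This was the largest log2 rise of the 30 genes with a pseudocount of 1, but with one of 0.1 those of DDR2 (3.04) and PDGFB (2.55) exceeded that of FGF2 (2.26). FGF2 shares 804 exon bases (11.9% of its annotated exons) with NUDT6 on the opposite strand. NUDT6 itself averaged 22.7 ± 0.85 and 63 ± 4.1 FPKM, and without strand information reads in the shared stretch cannot be assigned. The remaining exons of FGF2 were not measured separately.

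The PDGF ligands rose, while transcripts of their receptors were at or near 0. PDGFA, encoding the A chain of platelet-derived growth factor, rose 1.69-fold from 14.7, 12.9 and 13.8 to 22.2, 24.5 and 23.3 FPKM (log2 change 0.72 ± 0.069, limma adjusted p = 1.32e-05). PDGFB, encoding the B chain, rose 5.89-fold from 1.43, 1.4 and 0.51 to 6.89, 4.99 and 7.79 FPKM (log2 change 1.85 ± 0.22, limma adjusted p = 4.76e-05). The third DMSO library was the lowest for PDGFB, and the groups did not overlap. PDGFC was above 0 in 1 library only, at 0.09 FPKM. PDGFRA was listed at 0 throughout. PDGFRB read 0.02, 0.03 and 0 FPKM in DMSO and 0.32, 0.35 and 0.31 after GK921, separate but under the limit.

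Of the VEGF genes, the receptor KDR rose and the ligand VEGFB was not called. KDR, the main VEGF receptor of endothelium, read 1.63, 1.86 and 1.36 FPKM in DMSO and 2.7, 2.5 and 2.87 after GK921. This 1.66-fold rise (log2 change 0.50 ± 0.13, limma adjusted p = 0.00582) was not called with quantile normalization (limma adjusted p = 0.0973). The endothelial markers PECAM1 and VWF averaged 3.83 and 0.107 FPKM in DMSO and 3.94 and 0.143 after GK921. VEGFB, at 63.5, 61.2 and 52.9 against 61.4, 61.6 and 61.3 FPKM, was the third most abundant of the 30 in DMSO (limma adjusted p = 0.445). KDR is a neighbour of KIT and PDGFRA on chromosome 4, 338 kb from KIT, and both of these were listed at 0.

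The TAM receptors are a family whose ligands include GAS6 and protein S, and they take up dying cells in phagocytes. Among them MERTK rose while AXL and TYRO3 were called lower. MERTK read 15.8, 15.7 and 16.4 FPKM in DMSO and 38.4, 41.2 and 40.7 after GK921, a 2.51-fold rise (log2 change 1.28 ± 0.053, limma adjusted p = 5.39e-08). AXL was at 23.9, 25.4 and 24.8 against 22.7, 22.8 and 21.8 FPKM, a fall of 1.1-fold (log2 change -0.13 ± 0.053, limma adjusted p = 0.0456). MERTK thus exceeded AXL in each GK921 library and lay below it in each DMSO library. The AXL call was lost when any 1 library other than the first DMSO one was left out, at limma adjusted p-values from 0.063 to 0.137, and at 0.0749 with the replicate number as a block. TYRO3 fell 1.33-fold from 8.17, 8.46 and 9.82 to 5.65, 6.76 and 7.53 FPKM (limma adjusted p = 0.0161). That call was lost without the third DMSO library (0.0611) or the first GK921 library (0.0517), by the same limma test. GAS6 was at 0.14 to 0.73 FPKM over the 6 libraries. PROS1, which encodes protein S and is from the list of other ligands, fell 5.08-fold from 12.5, 12.2 and 14.4 to 2.73, 2.71 and 2.27 FPKM (log2 change -1.98 ± 0.10, limma adjusted p = 2.06e-07).

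The collagen receptors DDR1 and DDR2 differed in level and in change. DDR1 read 12.3, 12.9 and 12.4 FPKM in DMSO and 14.2, 12.9 and 14.1 after GK921, and was not called (limma adjusted p = 0.122). DDR2 read 0.22, 0.2 and 0.15 against 2.29, 1.69 and 3 FPKM. DDR2 was thus at a mean of 2.33 ± 0.656 FPKM after GK921, below DDR1 in every library. It reached the mean of 1 FPKM needed for testing only through its GK921 libraries, so its test supports nothing. ROR1, a WNT5A-binding receptor, fell 1.4-fold from 16.1, 15.2 and 15.3 to 10.1, 12.2 and 10.9 FPKM (log2 change -0.45 ± 0.079, limma adjusted p = 0.000641). MST1R, the receptor of macrophage-stimulating protein, was under the limit at 0.72, 0.6 and 0.42 against 0.23, 0.35 and 0.18 FPKM. With the limit lowered to 0.1 FPKM it was called lower, by a log2 change of -0.33 ± 0.12 (limma adjusted p = 0.0414). Its ligand gene MST1, from the list of other ligands, rose 2.48-fold from 1.72 ± 0.188 to 4.25 ± 0.566 FPKM (limma adjusted p = 0.000114). HGF, the ligand of MET, was at 0 to 0.28 FPKM over the 6 libraries.

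EPH receptors of the B class mostly fell, and EPHA2 was called higher. EPHB6, which encodes a receptor without kinase activity, read 20.6, 21.6 and 22.5 FPKM in DMSO and 2.61, 3.25 and 3.1 after GK921. This 7.23-fold fall (log2 change -2.50 ± 0.088, limma adjusted p = 2.04e-08) took EPHB6 from the most to the least abundant tested EPHB gene. EPHB2 fell 1.61-fold from 10.9, 11.1 and 11.9 to 7.16, 6.53 and 7.31 FPKM (log2 change -0.62 ± 0.078, limma adjusted p = 8.26e-05). EPHB4, which binds ephrin-B2, fell 1.51-fold from 8.79, 9.94 and 9.96 to 6.19, 6.23 and 6.57 FPKM (log2 change -0.53 ± 0.082, limma adjusted p = 0.000334). EPHB4 shares 69 exon bases (1.07%) on the opposite strand with SLC12A9, which averaged 14 ± 0.0902 and 7.09 ± 0.656 FPKM. EPHB3 was at 5.02 ± 0.0777 and 5.48 ± 0.34 FPKM with overlapping groups (limma adjusted p = 0.31), so of the 4 tested EPHB genes 3 fell.

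EPHA2, the most abundant EPH receptor and the one whose promoter shares the TGACGTCA match with AREG, read 40.3, 43.7 and 43 FPKM in DMSO and 51, 50.2 and 50.3 after GK921. The groups were separate (1.19-fold, log2 change 0.25 ± 0.045, limma adjusted p = 0.000821), but with median-ratio scaling the change was 0.08 and not called (limma adjusted p = 0.146). Its ligand gene EFNA1 rose 1.54-fold from 34.9, 34.6 and 32.7 to 48.7, 53.7 and 55.2 FPKM (log2 change 0.61 ± 0.057, limma adjusted p = 1.16e-05). EFNB1 was at 22.5 ± 3.43 and 23.8 ± 0.825 FPKM, with overlapping groups. Without the first DMSO library, its highest control, it was called higher (log2 change 0.20, limma adjusted p = 0.0335). EPHA1 and EPHA4 did not exceed 0.13 FPKM in any library.

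**Figure D3:**
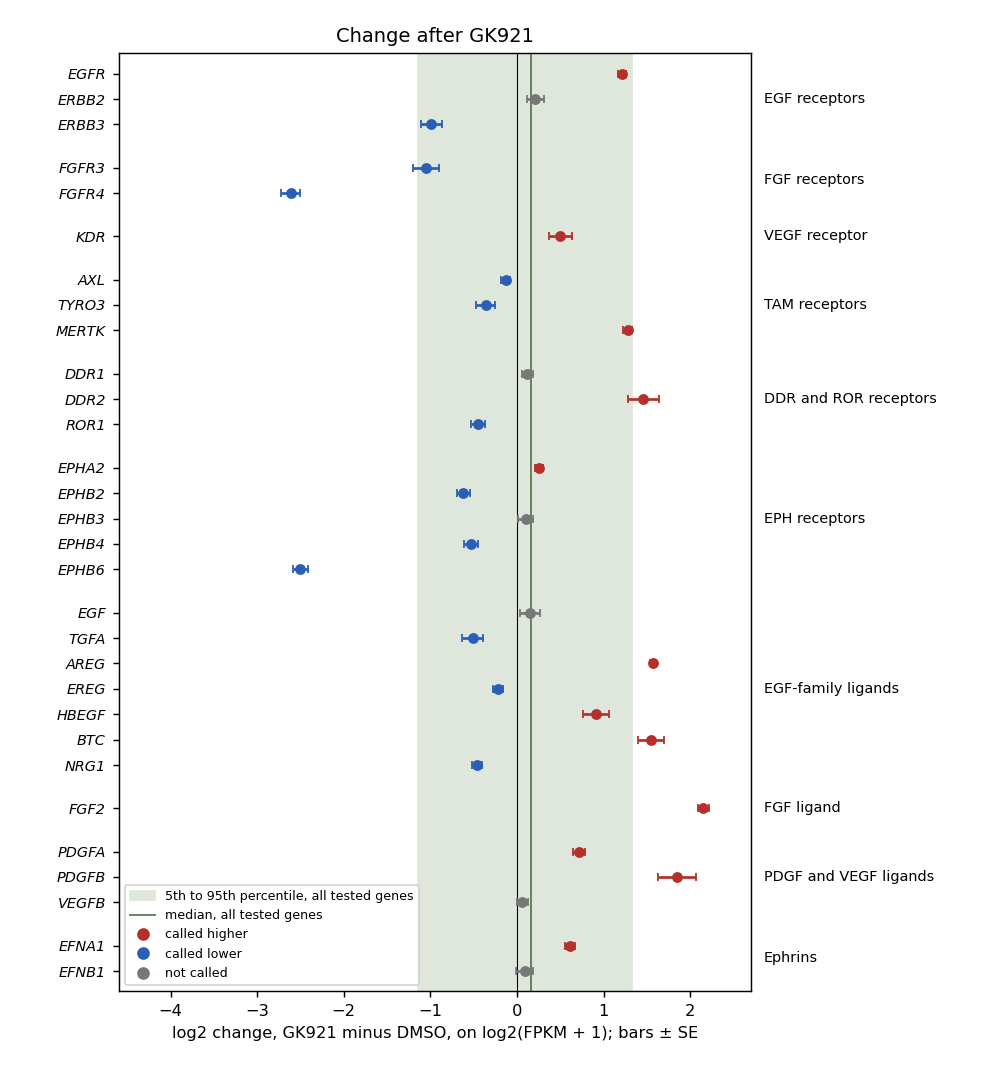
Log2 change on log2(FPKM + 1), GK921 minus DMSO, with its SE for the 30 tested genes, beside the median (green line) and the 5th to 95th percentile (band) of all tested genes. FGFR4 and EPHB6 lie below the band, and AREG, BTC, FGF2, PDGFB and DDR2 above it.

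The band from the 5th to the 95th percentile of all tested genes ran from -1.14 to 1.33. Outside it lay 7 genes, including DDR2, which reached the limit for testing only through its GK921 libraries. Relative to the median gene, at 0.16, EGFR was 1.05 higher, AREG 1.42, FGF2 1.99 and MERTK 1.12 higher, and FGFR4 and EPHB6 were at -2.77 and -2.66. Of 17 tested receptors 5 were higher and 9 lower (median -0.13), and of 13 tested ligands 7 were higher and 3 lower (median 0.61). Called in either direction were 82.4% of the receptors and 76.9% of the ligands, against 75.9% of all tested genes. Over all tested genes 46.8% were higher and 29.2% lower. The 5 higher receptors include DDR2, whose test supports nothing. When limma tested for changes beyond 1.2-fold (treat), 10 of the 30 genes were called higher and 8 lower. EREG, TGFA, KDR, AXL, TYRO3 and EPHA2 were no longer called. Of all 11573 tested genes, 3595 were higher and 2135 lower by treat, or 49.5% called. DDR2 is counted among the 10, and its call there supports nothing either.

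The other genes of the pathway, 115 on 5 lists, were read for the machinery around these receptors. Of 65 tested, 35 were called higher and 15 lower, or 76.9% called against the 75.9% over all tested genes, with a median log2 change of 0.20. For this and each list below, the reference over all tested genes without rescaling is 46.8% higher and 29.2% lower, with a median of 0.16. For rescaled counts the reference differs. Of the 11573 tested genes, 4221 were higher and 4374 lower with median-ratio scaling (median -0.0013). The counts were 4627 and 3985 with upper-quartile scaling (0.056), and 4396 and 4069 with quantile normalization (0.027). With median-ratio or upper-quartile scaling 24 of the 65 pathway genes were lower. Of 19 tested genes of receptor turnover and ligand release, 12 were higher and 2 lower (median 0.47), or 11 and 7 with median-ratio scaling (median 0.29), 12 and 7 with upper-quartile scaling and 12 and 5 with quantile normalization. ERRFI1, a feedback inhibitor that binds the EGFR kinase, rose 2.63-fold from 210 ± 4.96 to 552 ± 1.01 FPKM. LRIG1, which promotes the removal of EGF receptors, rose 2.69-fold, and RHBDF1, a partner of the sheddase ADAM17, rose 3.27-fold. ADAM17, which releases several EGF-family ligands and was singled out after its values were seen, rose 1.9-fold from 12.2 ± 0.624 to 23.2 ± 1.23 FPKM. ADAM9, another membrane metalloprotease, fell 3.13-fold from 280 ± 5.61 to 89.5 ± 1.93 FPKM.

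Of 23 tested adaptors and RAS, RAF, MEK and ERK genes, 12 were higher and 5 lower (median 0.19). That split was 8 and 8 with median-ratio scaling. The adaptor genes SHC1 and GAB2 rose 2.26-fold and 2.9-fold and the RAS exchange factor gene SOS2 2.23-fold, whereas the phosphatase gene PTPN11 fell 1.42-fold. Of 10 tested PI3K and AKT genes, 5 were higher and 4 lower (median 0.16), or 1 and 4 with median-ratio scaling. The insulin receptor substrate gene IRS2 was at 0.547 ± 0.17 and 3.09 ± 0.359 FPKM. It is counted among the 5 higher, but reached the limit for testing only through its GK921 libraries. The kinase genes AKT1 and AKT2 fell 1.73-fold and 1.45-fold, and PIK3CA rose 1.27-fold, though not when median ratios were used for scaling. Of 27 other receptor tyrosine kinase genes only 4 were tested, of which INSR (1.62-fold), LMTK2 (1.51-fold) and RYK (1.2-fold) were called higher, RYK not with median-ratio scaling. Of 9 tested other ligands and co-receptors 3 were higher and 4 lower (median -0.22), or 2 and 5 with quantile normalization. Besides PROS1 and MST1, the VEGF co-receptor gene NRP1 fell 1.83-fold and the macrophage growth factor gene CSF1 rose 1.6-fold.

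**Figure D4:**
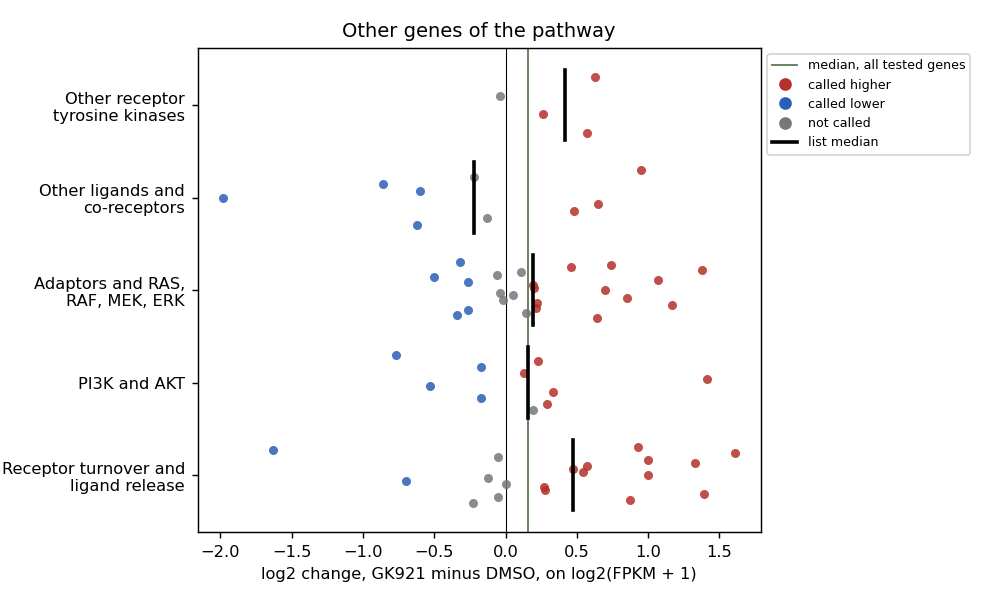
Log2 change on log2(FPKM + 1), GK921 minus DMSO, of each tested gene on the 5 pathway lists (points, coloured by call), with list medians as black bars and the median of all tested genes as a green line. Receptor turnover and ligand release genes have the highest median, 0.47, and other ligands and co-receptors the lowest, -0.22.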

How the data were processed

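RNA from 6 MHCC-97H libraries was sequenced, 3 given DMSO and 3 given 2 µM GK921. The authors deposited FPKM per gene symbol and library, per the file headers. Per the submitters' processing notes, the tools were HISAT2, featureCounts, edgeR and FastQC 0.11.5 and the build hg38, with no role given for each. For the annotation and strand setting, the sources used here give nothing. Groups came from sample titles. The deposited values, as log2(FPKM + 1), were tested in R 4.3.3 by limma 3.58.1 with an intensity trend, where a gene averaged 1 FPKM or more, with Benjamini-Hochberg adjustment over 11573 genes and a threshold of 0.05. The genes and lists described were chosen with earlier results of these data known. All 48 genes are named, with up to 4 called genes of each pathway list by size of change and at least 1 of each direction. Relative depth came from the most frequent ratio of values between 0.25 and 1.5 FPKM in each pair of libraries. It was checked on simulated libraries (largest error 0.139%). These had the same gene means in both groups and counting noise only, so the error may be larger in the real data. On 11320 genes of simulated data for GK921 against DMSO, 50 genes were changed at each fold tried. The test recovered 32% of genes changed 1.2-fold, 66% at 1.5-fold, 87.5% at 2-fold and 98% at 4-fold, with 4.76% of calls false. A far larger share was called in the real data (75.9%), so these rates need not hold there. Gene positions came from GENCODE release 29 (GRCh38). Alternatives were the pseudocount, expression limit, 3 rescalings, the replicate block, each library left out, no trend, array weights and treat.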

Additional observations from a re-analysis of the deposited data

How the results depend on the processing

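Of the 24 calls among receptors and ligands, 18 kept their direction and call under each alternative that tested them, of 18 run, and AXL, TYRO3, EREG, TGFA, KDR and EPHA2 lost theirs under at least 1. The 18 calls, and the counts of higher receptors and ligands below, include DDR2. It reached the limit for testing only through its GK921 libraries, so its call supports nothing. With a limit of 5 FPKM only 23 of the 30 genes were tested, and of the 18, DDR2, ERBB3, PDGFB and FGFR3 have no value there. AXL was also not called with a limit of 0.1 FPKM (limma adjusted p = 0.0511). Rescaling moved the median change of all tested genes from 0.16 to -0.0013 (median-ratio), 0.056 (upper-quartile) and 0.027 (quantile), and the share of calls that were rises from 61.6% to 49.1%, 53.7% and 51.9%. Among the 30 genes, 11 were then higher and 12 lower with median-ratio scaling or quantile normalization and 12 and 12 with upper-quartile scaling. The genes whose sign turned were uncalled before and after. With median-ratio scaling these were VEGFB (-0.12), EPHB3 (-0.04), DDR1 (-0.04) and EFNB1 (-0.08), with upper-quartile scaling VEGFB (-0.05) and EFNB1 (-0.02). With quantile normalization they were VEGFB (-0.01), ERBB2 (-0.03), EPHB3 (-0.12), EGF (-0.09), DDR1 (-0.05) and EFNB1 (-0.05), and without the third DMSO library VEGFB (-0.02) and EFNB1 (0.00). Over the libraries left out in turn VEGFB ranged from -0.02 to 0.11 and EFNB1 from 0.00 to 0.20. With treat, 3595 of all tested genes were higher and 2135 lower, and 23 and 9 of the other pathway genes. With median-ratio or upper-quartile scaling 24 of the other pathway genes were lower. The cause was not tested. Leaving out 1 library gave 12 to 13 genes higher and 10 to 12 lower. Replicate numbers are shared by the groups, and deviations of same-numbered libraries correlated at 0.031, 0.047 and -0.0021. With 3 libraries per group these values cannot show whether same-numbered libraries share a culture or a day, which is not stated. With the replicate block 12 genes were higher and 11 lower. Unknown absolute depth limits what can be said of the 18 genes under 1 FPKM.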
